A study of Mus musculus with 6 samples.

Results

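The 10 genes described here encode cadherins, the catenins that bind them, gap junction channels and a junction scaffold: Cdh2, Cdh11, Cdh13, Cdh6, Ctnnb1, Ctnna1, Ctnnd1, Gja1, Gjc1 and Tjp1. They were taken by name, as a family of genes, with earlier results of these data known. Every probe that carries one of these symbols through its RefSeq transcript is reported. This gave 12 probes for 10 of the 20659 genes named on the array. Expression was measured in MC3T3-E1, a mouse pre-osteoblast cell line, grown for 3 days on a metal scaffold in 24-well plates. The De-HA group (n = 3) grew on a scaffold that had been dealloyed, which leaches metal out of an alloy, and then covered with bioactive material. The FeMnSi group (n = 3) grew on the original scaffold of that alloy of iron, manganese and silicon and is the reference. No culture without a scaffold was analysed here, and the treatment and the coating were applied together, so their effects cannot be told apart. The labels do not say whether the replicates were separate cultures, so the spread behind the p-values may be technical.

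Cadherins are membrane proteins that join neighbouring cells by binding, through calcium-dependent outer domains, to cadherins on the next cell. Inside the cell their tails bind beta-catenin (Ctnnb1) and p120-catenin (Ctnnd1), and alpha-catenin (Ctnna1) links beta-catenin to actin. Beta-catenin is also the transcriptional effector of canonical Wnt signalling. Osteoblasts carry chiefly N-cadherin (Cdh2) and cadherin-11 (Cdh11), and they exchange ions and small molecules through gap junctions built largely of Cx43 (Gja1), with Cx45 (Gjc1) as a further connexin. The protein ZO-1 (Tjp1) binds the tails of both connexins and also tight junction proteins.

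The RefSeq promoter table of build GRCm38.p6 holds entries for 5 of the 10 genes: Ctnnd1, Tjp1, Ctnnb1, Gja1 and Cdh6. A window runs from 250 bases before to 50 bases after the start of a transcript. The windows of Gja1, whose level varied most between arrays of 1 group, of its scaffold partner Tjp1 and of Ctnnb1 are shown so that the start regions of a gap junction, a scaffold and a catenin gene can be compared. Each reads 5′ to 3′ on the strand of its gene, in lower case with motif matches in capitals, at chr10:56377050-56377349 (plus strand) for Gja1, chr7:65371195-65371494 (minus strand) for Tjp1 and chr9:120933150-120933449 (plus strand, the first of 2 windows in the table) for Ctnnb1. The motifs marked, searched on both strands, are AP-1 (TGANTCA), the GC box (GGGCGG) and the TATA box (TATAAA).
Gja1: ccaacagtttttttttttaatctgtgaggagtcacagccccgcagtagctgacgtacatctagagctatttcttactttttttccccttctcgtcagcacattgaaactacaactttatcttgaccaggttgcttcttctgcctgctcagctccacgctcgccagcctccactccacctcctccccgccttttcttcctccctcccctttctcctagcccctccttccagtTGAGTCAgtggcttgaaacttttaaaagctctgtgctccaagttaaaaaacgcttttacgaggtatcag
Tjp1: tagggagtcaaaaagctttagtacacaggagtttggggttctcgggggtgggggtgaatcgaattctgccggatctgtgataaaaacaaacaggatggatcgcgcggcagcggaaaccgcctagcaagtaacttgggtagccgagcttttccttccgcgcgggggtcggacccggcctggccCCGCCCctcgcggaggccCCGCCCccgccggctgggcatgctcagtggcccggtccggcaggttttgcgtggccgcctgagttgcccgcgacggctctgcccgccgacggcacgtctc
Ctnnb1: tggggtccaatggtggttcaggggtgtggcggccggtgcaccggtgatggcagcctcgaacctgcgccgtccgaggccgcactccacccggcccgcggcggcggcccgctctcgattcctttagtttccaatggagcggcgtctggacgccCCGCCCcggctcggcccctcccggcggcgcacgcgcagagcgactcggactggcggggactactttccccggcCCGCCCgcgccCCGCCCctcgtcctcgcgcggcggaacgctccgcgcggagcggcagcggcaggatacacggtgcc
The Gja1 window holds 1 AP-1 match, its first base at position -19 from the start, and 8 CG pairs. The Tjp1 window holds 2 GC box matches and 31 CG pairs, and the Ctnnb1 window 3 GC box matches and 46 CG pairs, against a median of 7 CG pairs over the 32851 promoters of the table. An AP-1 match is present in 7.81% of those promoters, a GC box in 35.7% and a TATA box in 13.6%. A TCF motif (CTTTGAT), searched in the same way, is in 3.73% of them and in none of these 3 windows. A match is only a run of letters, and no binding was measured here.

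Signals are given as scaled log2 signal, the log2 of the processed spot signal minus the log2 of the 75th percentile of the same array, so that 0 is the signal of that percentile. Differences are De-HA minus FeMnSi on this scale, with a standard error (SE) or a 95% confidence interval from limma, and p-values adjusted by Benjamini-Hochberg over all 28175 probes tested. The 75th percentile lay between 582 and 720 signal units over the 6 arrays, 63.5% to 74.4% of probes were well above background, and no spot was saturated. The scan times in the file headers split the arrays: De-HA 1, 2 and 3 and FeMnSi 1 were read in the first scan, FeMnSi 2 and 3 in the second. No De-HA array was read in the second scan, so it holds no comparison between the groups. The value within the first scan, the De-HA mean minus FeMnSi 1, is therefore given beside the pooled values of the members and of most genes named from lists. Over all 15535 genes with a tested probe, each read by its brightest, 4.47% were called higher in De-HA and 3.18% lower. Of the 9 osteoblast-lineage markers on the array 5 were called higher in De-HA and 0 lower, led by Omd with 2.37 ± 0.14 (SE, adjusted p = 0.00162, 2.25 within the first scan). The other 4 were Ibsp, Alpl, Runx2 and Sp7, and only Omd was still called with the scan as a block or without De-HA 2, De-HA 3, FeMnSi 2 or FeMnSi 3. Without De-HA 1 the calls left were Omd and Ibsp. The epithelial markers were dim, with summed signals of 88.1 to 139 over 5 genes, and Cdh5, Tek, Tie1, Emcn and Erg of the endothelial markers were not well above background on any of the 6 arrays. Pecam1 (191 to 265 units), named after its value was seen, and Kdr (225 to 293 units) of the same list were well above background on all 6. Pecam1 was not called (0.37, adjusted p = 0.0759), and Kdr is described below.

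Of the 9 genes tested only Cdh2, the N-cadherin gene, was called different between the scaffolds, and it was higher on De-HA by both of its probes. Of the 12 probes 11 could be tested, covering 9 genes. The 2 Cdh2 probes were called higher at an adjusted p under 0.05, 0 probes were called lower and 9 were not called. Over all tested probes 6.91% were called in either direction, 4.34% higher and 2.57% lower. The median difference was 0.11 over the 11 member probes and 0.12 over all probes, and 7 of the 11 were above 0. Quantile normalization, which forces the arrays to 1 distribution, moved the median of all probes from 0.12 to 0.0013, and then 3 of the 11 were above 0. The share of all called probes that were higher was 62.8% with the percentile scaling and 40.5% after quantile normalization. Both Cdh2 probes passed under either of these 2 normalizations. With the array median in place of the percentile A_55_P2029711 passed (adjusted p = 0.0440) and A_55_P2000133 did not (adjusted p = 0.0624).

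**Figure D1:**
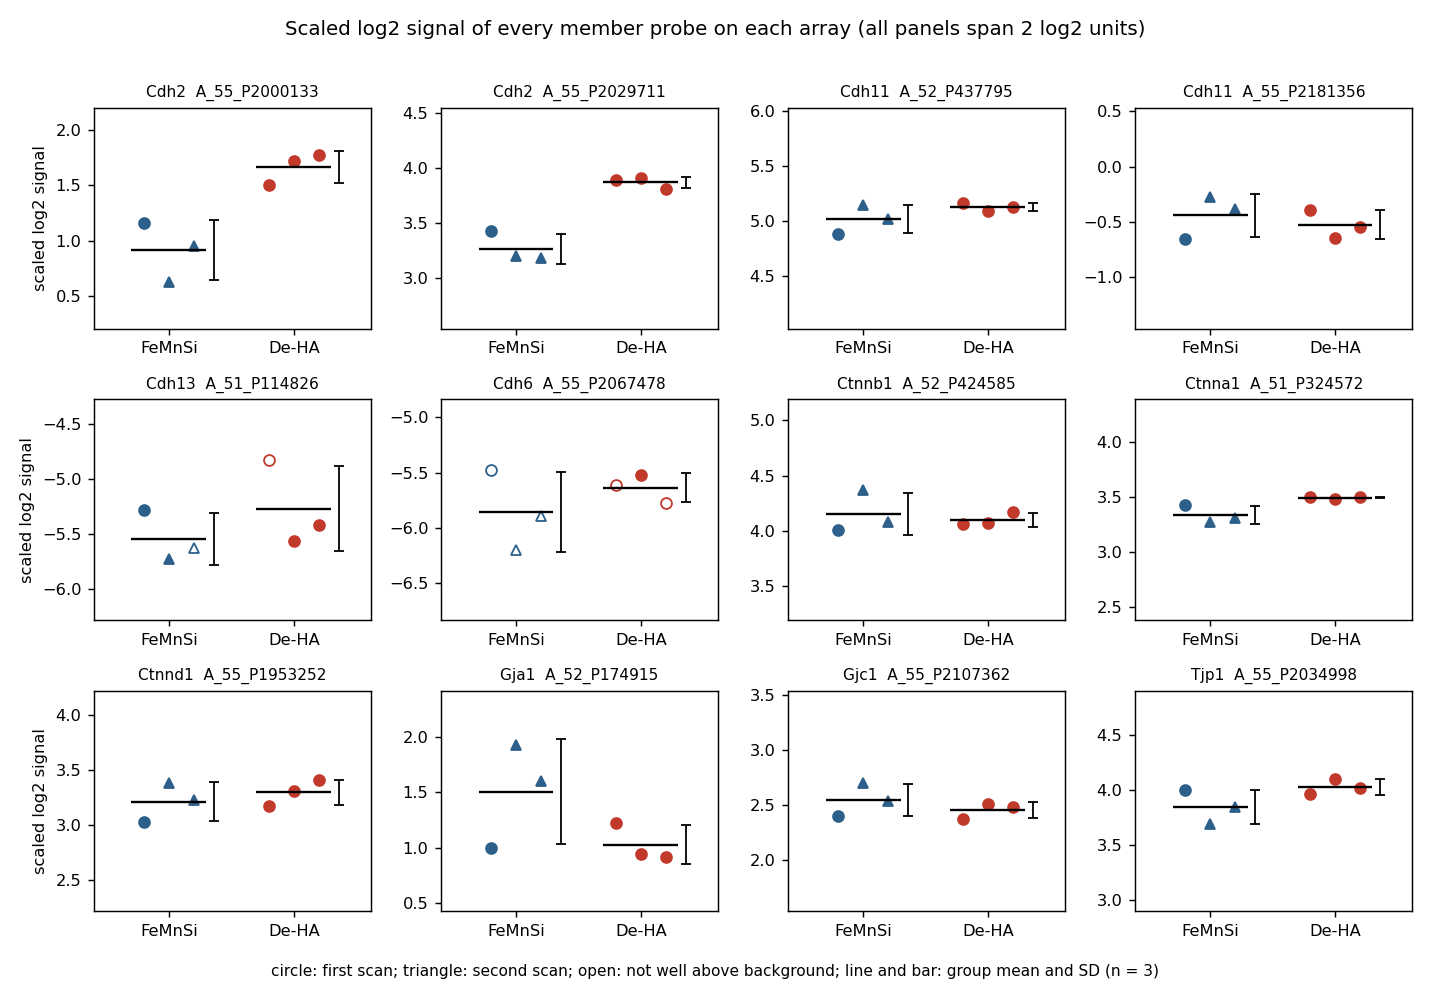
Scaled log2 signal (vertical axis, log2 units, each panel spanning the same range) of all 12 probes on the 3 FeMnSi and 3 De-HA arrays, with circles for the first scan, triangles for the second, open symbols where the spot was not well above background, and a line and bar for the group mean and SD. Both Cdh2 probes and Ctnna1, 3 of the 11 probes tested, have their groups apart, as do 37.4% of all tested probes. The 2 FeMnSi arrays of the second scan stand above every other array for Gja1.

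Cdh2 read by probe A_55_P2029711 lay at 3.89, 3.91 and 3.81 on De-HA 1, 2 and 3, and at 3.43, 3.20 and 3.18 on FeMnSi 1, 2 and 3. All 3 De-HA arrays were above all 3 FeMnSi arrays, and FeMnSi 1 was the highest of its group. The difference was 0.60 ± 0.11 (SE), a 1.52-fold higher signal, with a confidence interval of 0.35 to 0.85 and an adjusted p of 0.0265. The second probe, A_55_P2000133, lay at 1.504, 1.720 and 1.777 in De-HA and at 1.162, 0.626 and 0.954 in FeMnSi. Here too the groups did not overlap, as for 37.4% of all tested probes, with FeMnSi 1 again nearest to De-HA. The difference was 0.75 ± 0.16 (SE), or 1.69-fold, with an interval of 0.38 to 1.13 and an adjusted p of 0.0407. In RNA from whole cultures, a change in the number of cells of a type and a change in RNA per cell cannot be told apart.

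The Cdh2 call depended on all but 1 of the arrays. Within the first scan the differences were 0.44 and 0.51 for A_55_P2029711 and A_55_P2000133, with adjusted p of 0.149 and 0.241 when the scan was fitted as a block. With that block 0.561% of all probes passed and 0 of the 11 member probes did. Leaving out De-HA 1, 2 or 3 or FeMnSi 2 or 3 raised the adjusted p to between 0.0791 and 0.141 for A_55_P2000133 and between 0.0805 and 0.106 for A_55_P2029711. The differences were then 0.61 to 0.83 for A_55_P2000133 and 0.56 to 0.63 for A_55_P2029711. In these fits 138 to 343 of all 28175 probes passed, against 1948 with no array left out. Without FeMnSi 1 the differences were 0.88 and 0.68, with adjusted p of 0.0174 for A_55_P2000133 and 0.0137 for A_55_P2029711, in a fit in which 25.4% of all probes passed.

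Cdh11, the cadherin named for osteoblasts, did not pass by either probe. Its probe A_52_P437795 lay at 5.16, 5.10 and 5.13 in De-HA and at 4.89, 5.15 and 5.02 in FeMnSi, and the groups overlapped. The difference was 0.11 ± 0.10 (SE), with an interval of -0.13 to 0.35 (adjusted p = 0.467), 0.24 within the first scan and -0.17 after quantile normalization. The dimmer probe A_55_P2181356 lay at -0.39, -0.65 and -0.54 in De-HA and at -0.66, -0.28 and -0.39 in FeMnSi. Its difference of -0.086 ± 0.13 (SE, interval -0.40 to 0.23, adjusted p = 0.668) had the opposite sign, and was 0.13 within the first scan. On both probes FeMnSi 1 was the lowest FeMnSi array.

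Cdh2 was set against Cdh11 within each array, a comparison chosen after the values were seen, because a constant factor per array cannot move it. In all 4 pairings of their probes the 3 De-HA arrays lay above the 3 FeMnSi arrays. The Cdh2 difference exceeded the Cdh11 difference by 0.64 and 0.84 for A_55_P2000133 and by 0.49 and 0.69 for A_55_P2029711. The pairings share probes and were chosen for this difference, so no test is given. Against FeMnSi 1 alone the same 4 values were 0.26, 0.37, 0.20 and 0.31. Gja1 set against Gjc1 in this way differed by -0.39 (-0.021 against FeMnSi 1 alone), and Ctnnb1 against Ctnna1 by -0.22 (0.021 against FeMnSi 1 alone), and in neither were the arrays of the groups apart.

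**Figure D2:**
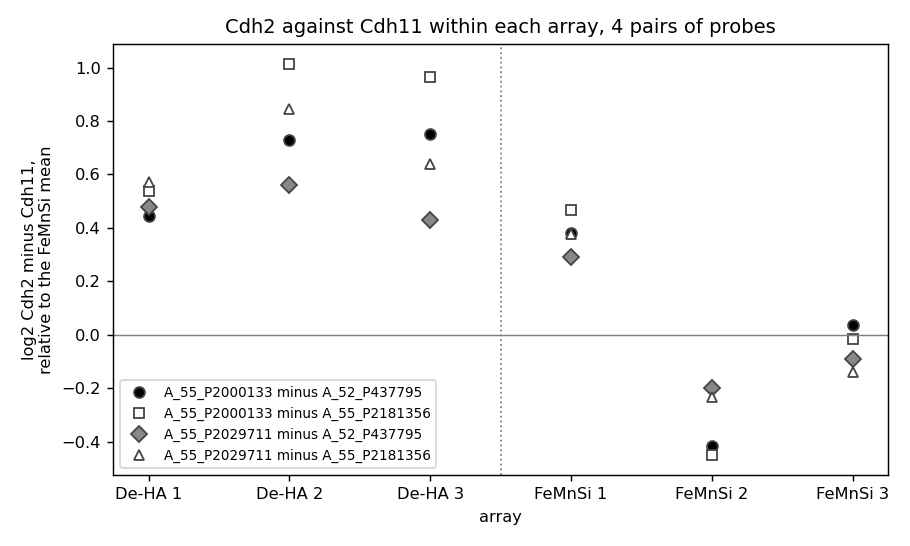
Log2 signal of Cdh2 minus that of Cdh11 within each array (vertical axis, log2 units, relative to the FeMnSi mean of the pairing) for the 3 De-HA and 3 FeMnSi arrays, with 1 symbol for each of 4 probe pairings. Every De-HA array lies above every FeMnSi array of the same pairing, and FeMnSi 1 lies nearest to De-HA.

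The other cadherins of the set were close to the limit of detection. Cdh13 encodes T-cadherin, which is held by a lipid anchor and lacks the tail that binds catenins. Its signals were 13.6 to 21.9 units in De-HA and 13.6 to 16.8 in FeMnSi, well above background on 2 of 3 arrays of each group. The highest of them, on De-HA 1, was not well above background there. Its difference was 0.27 ± 0.21 (SE, interval -0.23 to 0.78, adjusted p = 0.393), 0.0083 within the first scan and 0.021 after quantile normalization. Cdh6, which encodes K-cadherin, was well above background only on De-HA 2, with signals of 9.79 to 14.7 units over the 6 arrays, and was not tested.

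None of the 3 catenin genes passed the threshold. Ctnnb1 lay at 4.06, 4.07 and 4.17 in De-HA and at 4.01, 4.37 and 4.08 in FeMnSi, where FeMnSi 2 was the highest array and FeMnSi 1 the lowest of all 6. The difference was -0.057 ± 0.12 (SE), with an interval of -0.34 to 0.23 (adjusted p = 0.762), 0.088 within the first scan and -0.27 after quantile normalization. Its sign turned to 0.053 without FeMnSi 2.

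Ctnna1 was the most even member among the De-HA arrays, at 3.50, 3.49 and 3.50 (SD 0.0071), against 3.43, 3.27 and 3.31 in FeMnSi. Its groups did not overlap, as for both Cdh2 probes, and arrays were apart in this way for 37.4% of all tested probes. The difference was 0.16 ± 0.090 (SE, interval -0.055 to 0.37, adjusted p = 0.255), 0.067 within the first scan and -0.017 after quantile normalization. Ctnnd1 lay at 3.17, 3.30 and 3.41 in De-HA and at 3.03, 3.38 and 3.23 in FeMnSi, and the groups overlapped. Its difference was 0.083 ± 0.12 (SE, interval -0.21 to 0.38, adjusted p = 0.663), 0.27 within the first scan and -0.089 after quantile normalization. The Ctnnd1 sign also turned to -0.0037 with the array median in place of the percentile and to -0.0099 without FeMnSi 1.

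**Figure D3:**
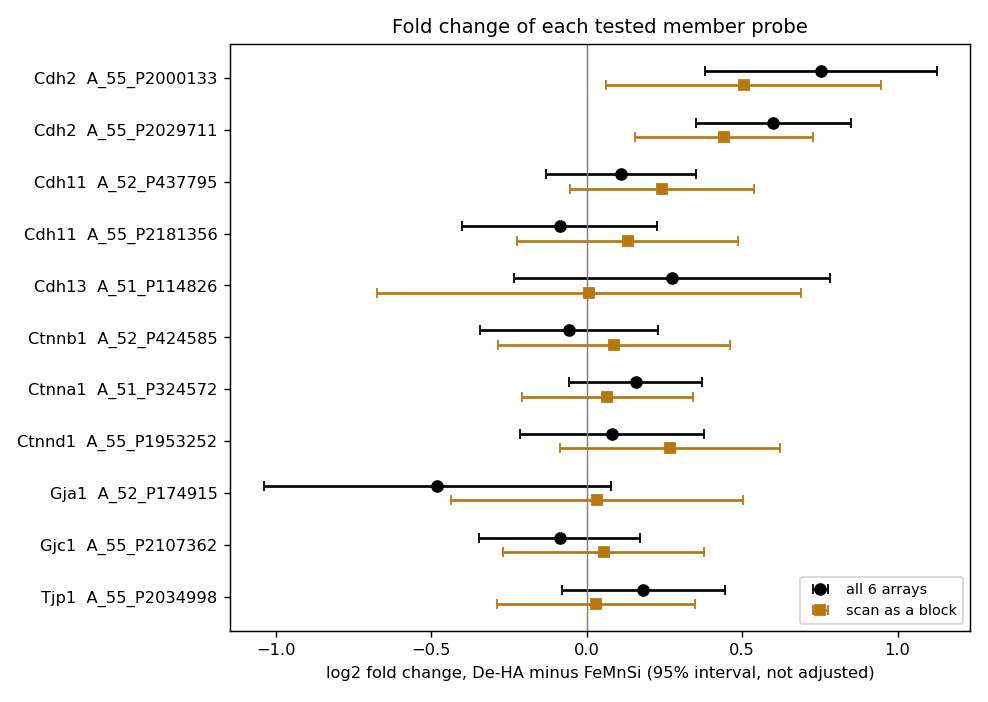
Difference between De-HA and FeMnSi (horizontal axis, log2 units) for each of the 11 tested probes, with its 95% confidence interval, not adjusted for the number of probes, from all 6 arrays (black circles) and with the scan fitted as a block (orange squares). For Gja1 the point moves from -0.48 to 0.033, and for both Cdh2 probes the interval stays above 0 under either fit.

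Gja1, the gene of the main osteoblast connexin Cx43, varied more between FeMnSi arrays than between the groups. It was read by 1 probe printed as 10 spots on each array. The scaled log2 signal was 1.23, 0.94 and 0.92 in De-HA and 0.99, 1.93 and 1.60 in FeMnSi, from signals of 1460, 1254 and 1098 units against 1303, 2739 and 2142. FeMnSi 2 and 3 were above all other arrays, while FeMnSi 1 lay among the De-HA arrays. Of the 10 spots 8, 7 and 9 were used on De-HA 1, 2 and 3, after spots marked as outliers were left out, and all 10 on each FeMnSi array. The SD of the spots used was 0.020 to 0.083, which measures the printing and reading of 1 array and not the spread between samples. With the outliers the spots of De-HA 1 ran from 9.86 to 10.58 on the unscaled log2 scale.

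The pooled Gja1 difference was -0.48 ± 0.24 (SE), with an interval of -1.04 to 0.078 and an adjusted p of 0.201. Within the first scan it was 0.033 (adjusted p = 0.951 with the scan as a block, interval -0.44 to 0.50). Without FeMnSi 1 it was -0.74 ± 0.15 (SE) and passed, with an adjusted p of 0.0257, in the fit in which 25.4% of all probes passed and 3 of the 11 member probes did. FeMnSi 2 and 3 exceeded FeMnSi 1 by 0.77 on average, and 5.58% of the tested probes differed at least as much between these arrays in either direction. The other 10 tested probes of the set differed by -0.40 to 0.33 there, and the median absolute value of all tested probes was 0.22. Whether the scan, the cultures or another property of FeMnSi 2 and 3 goes with the higher Gja1 signal was not tested.

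**Figure D4:**
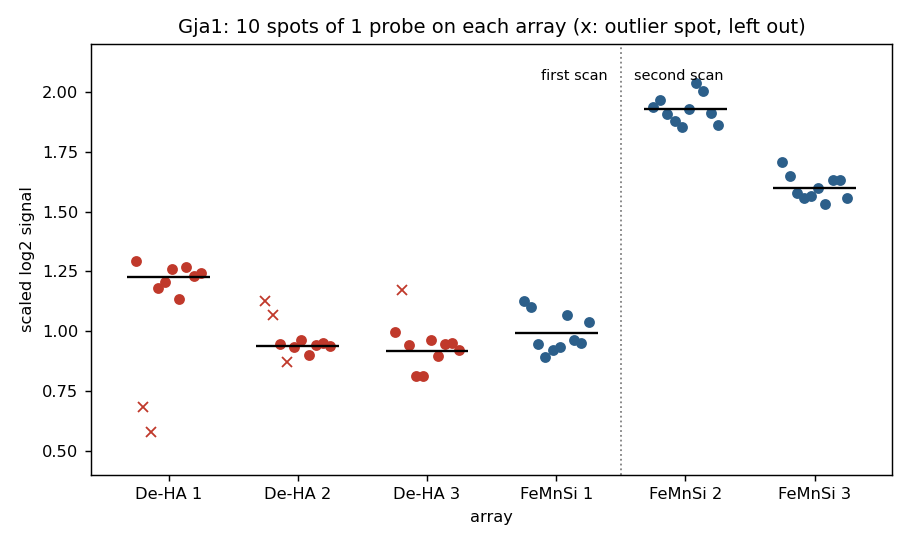
Scaled log2 signal (vertical axis, log2 units) of the 10 spots of the Gja1 probe on each array, with De-HA in red, FeMnSi in blue, crosses for outlier spots that were left out and a line for the array mean. The spots of FeMnSi 2 and 3 lie above those of the 4 arrays of the first scan, and those of FeMnSi 1 lie among those of De-HA.

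Gjc1, the gene of the connexin Cx45, lay at 2.38, 2.51 and 2.49 in De-HA and at 2.40, 2.70 and 2.53 in FeMnSi. Its difference was -0.087 ± 0.11 (SE, interval -0.35 to 0.17, adjusted p = 0.601), 0.054 within the first scan and -0.22 after quantile normalization. As for Gja1, FeMnSi 2 was the highest array, but FeMnSi 2 and 3 exceeded FeMnSi 1 by only 0.21. Tjp1, the ZO-1 gene, lay at 3.960, 4.103 and 4.019 in De-HA and at 3.998, 3.695 and 3.842 in FeMnSi, with FeMnSi 1 inside the De-HA range and FeMnSi 2 and 3 below it. Its order over the FeMnSi arrays was the reverse of that of Gja1. The difference was 0.18 ± 0.11 (SE, interval -0.079 to 0.44, adjusted p = 0.279), 0.030 within the first scan and -0.010 after quantile normalization.

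Against this, 8 lists of other junction genes and of genes that act on the members held 127 tested genes, each represented by its brightest probe. Of these 7 were called higher and 0 lower, where 4.47% of all 15535 genes were called higher and 3.18% lower. All 7 calls were lost when any 1 of De-HA 1, 2 or 3 or FeMnSi 2 or 3 was left out. They were also lost when the scan was fitted as a block. In those fits the calls over all 28175 probes fell from 1948 to between 138 and 343. All 7 were kept without FeMnSi 1, when 25 of the 127 were called, 22 of them higher. In that fit 25.4% of all probes passed, and 73.0% of those calls were higher. After quantile normalization 5 of the 7 were still called and Jam2 and Snai2 were not, while Ybx3, named after its value was seen, was called lower (-0.42, adjusted p = 0.0363, against -0.22 and an adjusted p of 0.196 with the percentile scaling).

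Among the other cadherins and protocadherins 23 of 42 genes could be tested, 22 of them with a difference above 0 and a median of 0.31. Over all tested genes 63.1% were above 0, with a median of 0.10. After quantile normalization 20 of the 23 were above 0, against 48.7% of all genes, and the median of the list was 0.15. Most of the 23 were dim, with at most 147 units on every array, such as Pcdh10 with 25.8 to 39.5 units. Over all probes the median difference was 0.18 with dim probes kept and 0.11 over those well above background on all 6 arrays. The shares over all genes were not matched for signal level. Other probes differed by -0.43 for Pcdh10 (0.23 on its brightest) and by -0.21 for Celsr2. Those of Pcdh15 differed by 0.26 to 0.58. These genes were named after their values were seen. Only Pcdh18, a protocadherin gene, was called, with signals of 8313, 8895 and 8092 units in De-HA against 6354, 5515 and 5517 in FeMnSi and a difference of 0.71 ± 0.12 (SE, adjusted p = 0.0241, 0.49 within the first scan). Fat3, named after its value was seen, was the only gene of the 8 lists called with the scan as a block (adjusted p = 0.0489). Its signal on FeMnSi 1, 7.03 units, was under the lowest signal well above background on that array (14.5), so no size is given for that difference. The E-cadherin gene Cdh1, which marks epithelia, had signals of 20.5 to 32.7 units and was not called (0.41 ± 0.15 SE, adjusted p = 0.116, 0.55 within the first scan).

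The list of other catenins and adherens junction adaptors had 3 of 20 tested genes called higher, with a median of 0.11. Afdn encodes afadin, which ties nectins to actin. Its signals were 193, 214 and 221 units in De-HA and 126, 147 and 157 in FeMnSi, a difference of 0.71 ± 0.12 (SE, adjusted p = 0.0219, 0.81 within the first scan). Lmo7, which encodes a protein that binds afadin and alpha-actinin, differed by 0.69 (adjusted p = 0.0168, 0.61 within the first scan), and by 0.30 on its other probe. Ptprm, a receptor phosphatase gene of cell contacts, differed by 0.47 (adjusted p = 0.0370, 0.40 within the first scan).

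Of 13 tested genes for other connexins and pannexins, with a median of 0.18, only Gjb1 was called. It encodes the connexin Cx32. Its signals were 1350, 1266 and 967 units in De-HA and 749, 567 and 764 in FeMnSi, with no overlap, as for 37.4% of all tested probes. This was a 1.93-fold higher signal (0.94 ± 0.17 SE, adjusted p = 0.0299, 0.74 within the first scan). None of the 15 genes for proteins that bind, modify or turn over Cx43 passed, with a median of 0.11 and the smallest p-values for the kinase genes Csnk1d (0.47, adjusted p = 0.102, 0.22 within the first scan) and Prkca (0.45, adjusted p = 0.124, 0.28 within the first scan).

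Among other tight junction genes 1 of 26 tested was called, Jam2, a junctional adhesion molecule gene (0.55 ± 0.12 SE, adjusted p = 0.0426, 0.50 within the first scan), and its other probe differed by -0.11. The median of that list was 0.18. No desmosome gene of 7 tested passed, the smallest p-values being those of the plakophilin gene Pkp3 (0.65, adjusted p = 0.0732, 0.60 within the first scan) and of the periplakin gene Ppl (-0.40, adjusted p = 0.180, -0.22 within the first scan). None of 13 genes that control beta-catenin turnover passed, with a median of 0.17 and the smallest p-values for Siah1a (0.39, adjusted p = 0.108, 0.15 within the first scan) and Amer1 (0.44, adjusted p = 0.125, 0.083 within the first scan).

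Of 10 tested transcription factor genes linked to the exchange of one cadherin for another, 1 was called. This was Snai2, which encodes a repressor of E-cadherin, with 12475, 13085 and 12167 signal units in De-HA and 9148, 10197 and 9788 in FeMnSi, a difference of 0.54 ± 0.085 (SE, adjusted p = 0.0208, 0.54 within the first scan). After quantile normalization its difference was 0.33 (adjusted p = 0.0791). The median of the list was 0.15.

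**Figure D5:**
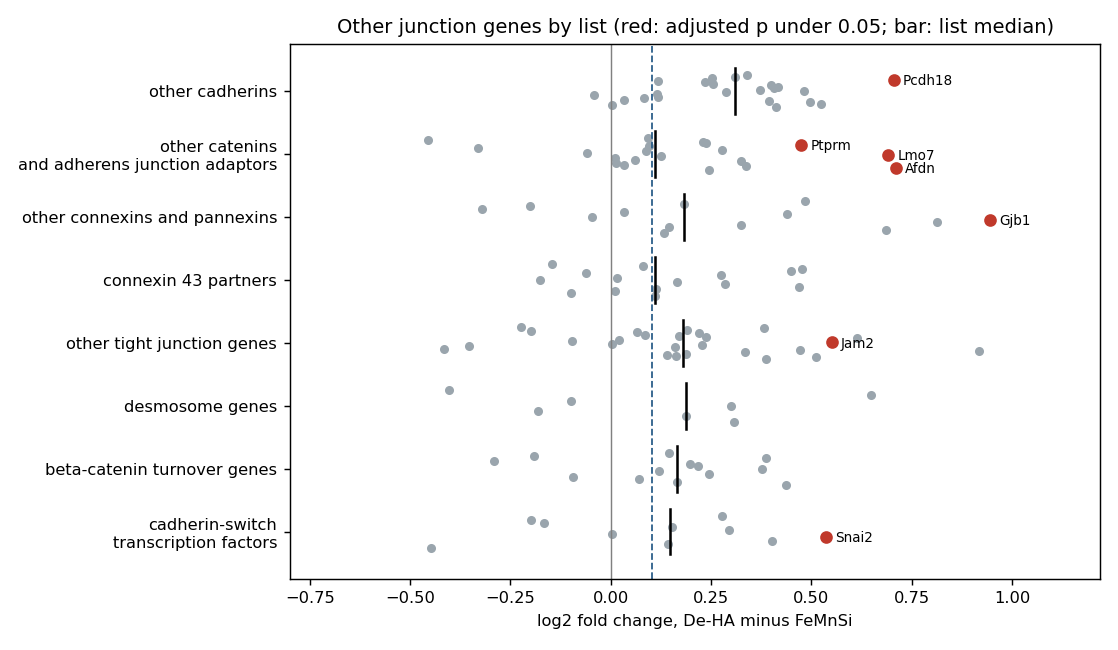
Difference between De-HA and FeMnSi (horizontal axis, log2 units) for each tested gene of 8 lists (rows), with called genes in red and named, a bar for the median of each list and a dashed line for the median of all genes at 0.10. The list of other cadherins has 22 of 23 genes above 0, against 63.1% of all genes, and most of the 23 are dim.

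In each of 4 marker lists for other cell types 1 gene was called higher in De-HA, where 4.47% of all 15535 genes were. The part of these markers in the values above was not tested. Of 6 neural crest and glial markers only S100b was called (1.32 ± 0.11 SE, adjusted p = 0.00343, 1.20 within the first scan), while Cdh19 and Foxd3 were nowhere well above background. The summed signal of that list, in multiples of the 75th percentile, was 10.98 to 12.74 in De-HA and 4.76 to 5.38 in FeMnSi. S100b itself had 6464 of the 6849 units of that list on De-HA 1. Of 5 tested myoblast markers Myod1 was called (1.12 ± 0.24 SE, adjusted p = 0.0431, 0.83 within the first scan). Summed multiples were 0.27 to 0.30 against 0.15 to 0.18, and Myog, Myf5 and Ckm were nowhere well above background. Myod1 itself had 137 of the 198 units of that list on De-HA 2 and 39.9 of 111 on FeMnSi 2. Pax7, named after its value was seen, was dim and differed by -0.61 (adjusted p = 0.413). Its difference was 0.47 within the first scan and -1.01 after quantile normalization. Of 6 tested myeloid markers Adgre1 was called (0.77 ± 0.12 SE, adjusted p = 0.0203, 0.85 within the first scan), with sums of 4.06 to 4.52 against 3.04 to 4.34 and Tyrobp not well above background. In the same list Lyz2 and Cd14, named after their values were seen, differed by -0.39 (adjusted p = 0.0632) and -0.23 (adjusted p = 0.267), and Lyz2 was called lower after quantile normalization (-0.56, adjusted p = 0.0484). Kdr was called among the 2 tested endothelial markers (0.41 ± 0.086 SE, adjusted p = 0.0411, 0.38 within the first scan), with sums of 0.80 to 0.89 against 0.63 to 0.65. Of these 4 calls only that of S100b held with the scan as a block and without any 1 array, while those of Myod1, Adgre1 and Kdr were lost with the block and without any 1 of De-HA 1, 2 or 3 or FeMnSi 2 or 3, and that of Myod1 also after quantile normalization. The 5 tested epithelial markers had 0 calls (Epcam 0.88 ± 0.22 SE, adjusted p = 0.0608, 0.41 within the first scan), with sums of 0.18 to 0.22 against 0.12 to 0.16. The osteoblast-lineage sums were 280 to 322 against 193 to 245, made up mostly of Col1a1, Col1a2 and Sparc, named after their values were seen. On De-HA 1 these had 52495, 87357.7 and 56964.5 of the 201048 units of that list. None of them was called (0.44, 0.46 and 0.47, adjusted p = 0.0902, 0.0895 and 0.0679). After quantile normalization they differed by 0.083, 0.095 and 0.10.

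The genes whose scaled signal over the 6 arrays was most like that of 3 members were listed as a description, since the points share scans and groups. For Cdh11 these were AU041133, Sft2d1 and Olfr616 (r = 0.991, 0.991 and 0.990), with 54 of 15535 genes at an r of at least 0.95. For Ctnnb1 they were the proteasome subunit gene Psmd6, Acd and Kcnk12 (r = 0.989, 0.988 and 0.987), with 20 genes at that level. For Gja1 they were Cep41, Zfp994 and the adenosine kinase gene Adk (r = 0.999, 0.998 and 0.996), with 326 genes at that level. Over the 4 arrays of the first scan alone the 3 values for Gja1 were 0.998, 0.998 and 0.95. None of these 9 genes was called different between the scaffolds.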

How the data were processed

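The 6 samples each went to 1 single-colour (Cy3) Agilent mouse array. The submitters' processing notes name Agilent Feature Extraction, version 11.0.1.1, as the reader. The deposited files hold linear intensity values per spot, background-subtracted and detrended within the array per the file headers, with no scaling between arrays. The log2 values of the authors' matrix share 1 median (5.77) and follow the log2 signals of the same arrays in scale and direction; how they were centred is not given in the sources used here. They served as an alternative.

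From each log2 intensity the log2 of the array's 75th percentile (control spots excluded) was subtracted. A probe's value is the mean of its spots that were not marked as outliers. Tests covered probes well above background on 3 or more of the 6 arrays (28175, after 205 with outlier spots alone on an array were dropped). Groups were compared with limma (3.58.1, under R 4.3.3; lmFit, then eBayes with no trend), adjusted by Benjamini-Hochberg over all probes with a threshold of 0.05. The fit was tried on simulated data with independent noise, no scan effect and added shifts larger than the Cdh2 differences. That trial does not cover the split of these arrays by scan. Of 28684 probes with a RefSeq accession 27234 were matched to a symbol in the GRCm38.p6 table. Gene coordinates were not used, since the array header names another build. Alternatives covered normalization, background, filters, probe choice, scan, replicate number and each array left out.

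The text names all members, up to 3 called genes of a list with the smallest p-values (or 2 where none passed), and the 3 genes most alike to Cdh11, Ctnnb1 and Gja1. Cdh1 is named as an epithelial marker. Fat3, Ybx3, Runx2, Sp7, Lyz2, Cd14, Pax7, Col1a1, Col1a2, Sparc, Pecam1, Celsr2, Pcdh10 and Pcdh15 fall outside this rule. The members and lists were chosen with earlier results of these data known. The main fit did not pair samples by replicate number, and the number of arrays limits the precision.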

Additional observations from a re-analysis of the deposited data

How the results depend on the processing

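For the 11 tested member probes 206 alternative values were computed: 166 kept their sign and side of the threshold, 19 lost the call (all Cdh2), 1 gained it (Gja1 without FeMnSi 1) and 20 changed sign, none of them a called value. Over all probes the count of calls was 1948 as reported, with 8967 at an unadjusted p under 0.05. It was 298 when dim probes were kept, 3294 when eBayes used a trend, 158 with the scan as a block, 6 on the arrays of the first scan alone, and 138 to 7168 with 1 array left out. The count of member probes called was 2 as reported, 1 with median scaling, 1 with 1 probe per gene and 1 with probes of a gene averaged (both of which hold Cdh2 once by construction), 0 with no filter, 0 with the scan as a block, 0 on the first scan alone, and 0 to 3 with 1 array left out. The cause of these shifts was not tested.

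With the replicate number as a block (replicate block) 469 probes and 0 member probes were called, the Cdh2 probes having adjusted p of 0.0713 and 0.0588. The labels do not say whether the numbers pair the samples. Deviations of same-numbered arrays from their group mean correlated at 0.027, -0.083 and 0.14. These values cannot settle it, since the scans split the FeMnSi arrays and not the De-HA arrays.

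After quantile normalization and in the series matrix the sign turned for Cdh11 A_52_P437795 (-0.17 in both), Ctnna1 (-0.017 and -0.013), Ctnnd1 (-0.089 and -0.085) and Tjp1 (-0.010 and -0.0051), and with median scaling for Ctnnd1 (-0.0037). With the scan as a block and on the first scan alone it turned for Cdh11 A_55_P2181356 (0.13), Ctnnb1 (0.088), Gja1 (0.033) and Gjc1 (0.054). It turned for Cdh11 A_55_P2181356 with the mean of the probes (0.012). With 1 array left out the range was -0.13 to 0.053 for Ctnnb1 and -0.0099 to 0.17 for Ctnnd1. Among calls over all probes 39.4% were higher with median scaling and 41.7% in the series matrix. The planned normexp correction on the mean signal was not run, since the files used hold the median signal, which was used in its place after the data were seen. Cdh6 and Cdh13 are limited by signals near background.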
